A study of Mus musculus with 721 samples.

Results

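The 31 genes described here encode enzymes of glycolysis, glucose and lactate transporters on either side of it, and factors that set its rate. They were chosen by symbol from the 24483 genes of the count tables, and all 31 had a row and passed the filter on low counts. No phosphoglycerate kinase gene was among them, so the set does not hold every enzyme of the pathway. Single cells of wild-type C57Bl/6Babr mouse embryos had been sequenced with Smart-seq2 (a full-length, unstranded cDNA protocol without molecular identifiers) within the G&T-seq procedure, from embryonic day (E) 3.5 to E6.5 in steps of 1 day. Of the 721 cells, none of them treated or mutant, 99 were taken at E3.5 and 250 at E6.5, where some embryos were titled E6.75. Trophectoderm had been removed by immunosurgery at E3.5 and E4.5, epiblast and visceral endoderm had been parted by hand at E5.5, and the embryonic part was dissociated at E6.5. Counts per cell ranged from 66896 to 3792936, with stage medians between 553935 and 788667.

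The labels gave stages but no lineages, apart from some wells labelled ve (read as visceral endoderm), E5.5 wells among them. That label was not used. Cells were clustered within the data, and clusters were named by mean log2 levels of marker sets. The clusters at E4.5 held 23 epiblast-like and 82 endoderm-like cells, those at E5.5 held 8 endoderm-like cells with all others epiblast-like, and those at E6.5 held 89 and 80 epiblast-like cells (with and without a plate name), 39 endoderm-like and 25 primitive streak-like cells, with 17 cells left unnamed. The 99 E3.5 cells, from the inner cell mass, were kept as 1 class. Summed over 21 endoderm markers (Gata6, Sox17, Amn, Ttr and others), levels were 9652 to 14750 CPM (counts scaled to a library total of 1e6) in E4.5 endoderm-like sums and 49.2 to 264.4 CPM in E4.5 epiblast-like sums. Over 18 epiblast markers, levels were 14230 to 18170 CPM in E4.5 epiblast-like and 6926 to 11070 CPM in E4.5 endoderm-like sums. The endoderm-like levels overlapped the 8623 to 11660 CPM of E5.5 epiblast-like sums. Both marker sets also named the clusters, so neither gap is an independent check of the names. Some cells had been labelled as doublets by eye, 31 of the E4.5 endoderm-like and 7 of the E4.5 epiblast-like cells among them.

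The embryo was the replicate. Each embryo with at least 3 cells of a class contributed 1 summed count profile for it (a sum, below), which gave 10 sums at E3.5, 5 of each class at E4.5, 8 epiblast-like sums at E5.5, 8 epiblast-like and 5 endoderm-like sums at E6.5 on plates P1 to P3, and 4 and 2 such sums at E6.5 from embryos with no plate name. One of the 10 E3.5 sums holds 9 cells without an embryo number and may mix embryos. The 5 E4.5 epiblast-like and endoderm-like sums came from the same 5 embryos. Levels are CPM scaled between sums by the trimmed mean of M-values (TMM). A gene was called when edgeR's quasi-likelihood test gave a Benjamini-Hochberg adjusted p of at most 0.05 over all 15258 genes tested and the log2 fold change exceeded 1. Stage and plate cannot be told apart: the plate names differed between stages, apart from P1, P2 and P11.P6.P10, which recur at more than 1 stage, and the labels do not say whether a recurring name was the same physical plate.

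Glycolysis splits glucose into pyruvate, and lactate dehydrogenase turns pyruvate into lactate while restoring the cofactor that glycolysis consumes. Before implantation the mouse embryo first depends on pyruvate and lactate and takes up more glucose from the morula and blastocyst stages on. The pluripotent cells of the early postimplantation epiblast are known for high glycolysis and lactate output, and hypoxia-inducible factor (HIF) is a well-known activator of many of the genes described here.

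The members as a group were lowest at E3.5. The mean of log2(CPM + 1) over the 31 genes stood at 3.21 ± 0.52 (mean and SD over 10 embryos) at E3.5. At E4.5 it had risen to 4.98 ± 0.18 in the epiblast-like and 5.38 ± 0.21 in the endoderm-like sums (n = 5 each), and E5.5 epiblast-like sums reached 5.75 ± 0.11 (n = 8). No E3.5 embryo, with a highest mean of 3.99, reached the lowest E4.5 mean of 4.73. At E6.5 the epiblast-like mean was 5.48 ± 0.24 (n = 8) on plates P1 to P3 and 5.88 ± 0.17 (n = 4) without plate name, and the endoderm-like mean on plates P1 to P3 was 4.97 ± 0.15 (n = 5).

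**Figure D1:**
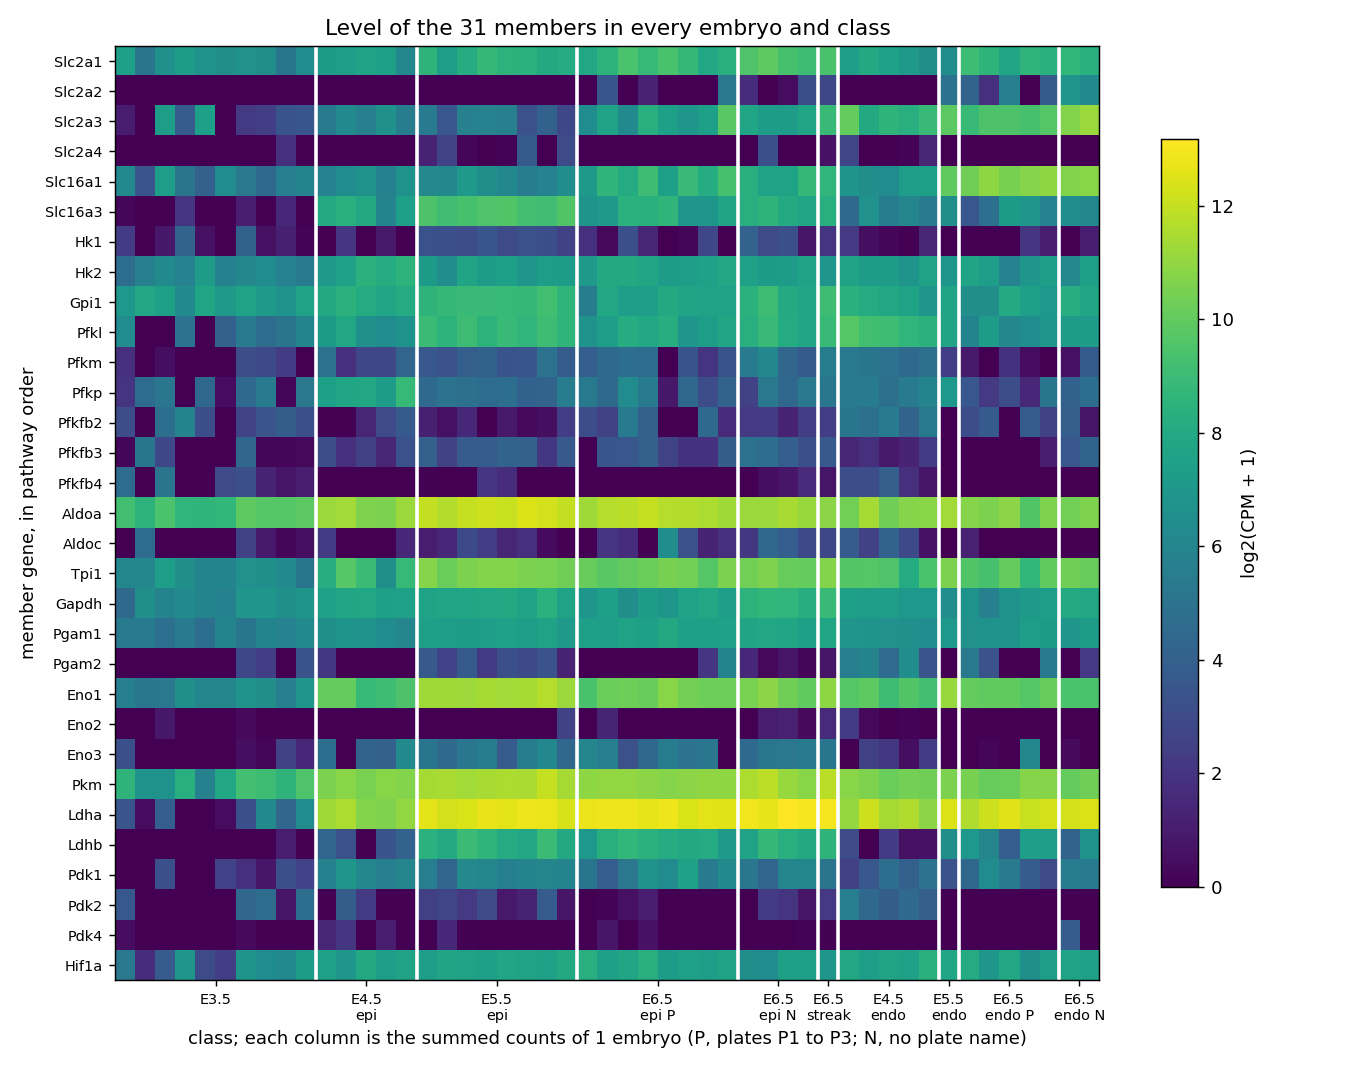
Level of each of the 31 genes, as log2(CPM + 1) by the colour scale, in every embryo sum. Rows are genes in order of their role and columns are embryos by stage and class (epi, epiblast-like; endo, endoderm-like; P, plates P1 to P3; N, no plate name); the E3.5 columns, with a mean of 3.21 over the 31 genes, are the darkest (lowest) for Ldha, Slc16a3, Ldhb and Eno1.

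Between E3.5 and E4.5 more members rose than fell in both lineages, those of lactate formation and of the triose phase among them. In the epiblast-like sums 14 members were higher and 1 lower than at E3.5, where 13.1% of all genes tested were called higher and 8.15% lower. Of all genes called there 61.6% were higher, and 38.1% were in a fit of only the 2 classes compared. In the endoderm-like sums 16 members were higher and 0 lower, against 13.8% and 5.6% of all genes. The median log2 fold change of the members was 1.29 in the epiblast comparison and 1.46 in the endoderm comparison, beside medians of 0 and 0.15 over all genes tested. For the absence of lower members in the endoderm comparison, edgeR's unadjusted p was below 0.05 for 0 lower members and DESeq2 also called 0. Both comparisons used the same 10 E3.5 sums. Of the members, 11 were called higher in both of them, 3 (Eno3, Gapdh and Pfkp) in the epiblast comparison alone and 5 (Pfkm, Pgam1, Pgam2, Slc16a1 and Slc2a3) in the endoderm comparison alone. By role, the epiblast calls were 0 of 4 glucose transporters, 1 of 2 monocarboxylate transporters, 4 of 8 enzymes of the hexose phase, 5 of 8 of the triose phase, 2 of 2 lactate dehydrogenase subunits, 1 of 3 pyruvate dehydrogenase kinases and Hif1a.

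The 4 largest increases in the epiblast comparison belonged to the genes of lactate formation and export and to a kinase that inhibits the pyruvate dehydrogenase complex, which oxidises pyruvate in the mitochondrion. Ldha (chr7:46841475-46855627, plus strand, GRCm38) encodes the muscle-type subunit of lactate dehydrogenase, Slc16a3 (chr11:120948480-120960868, plus) the lactate exporter MCT4, Ldhb (chr6:142490249-142507957, minus) the heart-type subunit of lactate dehydrogenase, and Pdk1 (chr2:71873224-71903858, plus) pyruvate dehydrogenase kinase 1. The 250 bases upstream of a RefSeq start of each (GRCm38.p6, gene strand, 5′ to 3′) are shown because the core of the hypoxia response element, ACGTG or GCGTG, is known to lie close to the start of several of these genes. Capitals mark matches to those letters on either strand, which include the E-box CACGTG. The windows are chr7:46845554-46845803 for Ldha and chr11:120948817-120949066 for Slc16a3, both downstream of the outermost annotated start, chr6:142507958-142508207 for Ldhb and chr2:71872974-71873223 for Pdk1.
Ldha: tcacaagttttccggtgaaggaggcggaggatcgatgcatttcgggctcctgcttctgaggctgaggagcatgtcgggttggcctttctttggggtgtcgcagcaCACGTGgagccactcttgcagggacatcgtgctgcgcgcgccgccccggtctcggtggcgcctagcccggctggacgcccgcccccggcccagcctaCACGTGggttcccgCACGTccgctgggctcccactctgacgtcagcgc
Slc16a3: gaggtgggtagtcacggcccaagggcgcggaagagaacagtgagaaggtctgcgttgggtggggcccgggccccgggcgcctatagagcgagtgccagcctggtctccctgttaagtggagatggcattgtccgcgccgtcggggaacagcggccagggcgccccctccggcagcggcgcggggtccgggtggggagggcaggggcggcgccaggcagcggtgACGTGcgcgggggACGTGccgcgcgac
Ldhb: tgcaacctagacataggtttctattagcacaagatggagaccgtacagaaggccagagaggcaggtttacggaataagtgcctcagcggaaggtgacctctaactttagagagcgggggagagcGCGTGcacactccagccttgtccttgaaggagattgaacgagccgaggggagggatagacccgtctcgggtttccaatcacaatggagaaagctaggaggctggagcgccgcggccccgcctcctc
Pdk1: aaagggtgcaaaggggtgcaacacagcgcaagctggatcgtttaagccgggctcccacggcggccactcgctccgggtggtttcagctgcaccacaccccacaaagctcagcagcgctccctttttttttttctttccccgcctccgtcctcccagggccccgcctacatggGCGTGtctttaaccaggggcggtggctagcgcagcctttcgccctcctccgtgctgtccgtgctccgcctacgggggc

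In these letters Ldha held 5 matches to ACGTG, 4 of them as the 2 copies of the palindrome CACGTG, Slc16a3 held 2, and Ldhb and Pdk1 each held 1 GCGTG. Windows of 300 bases, 250 before and 50 after a start, were found for 29 of the 31 members. ACGTG was present in 20 of their 45 windows (44.44%) and in 19.62% of all 32851 windows. GCGTG was present in 24 of 45 (53.33%) against 32.39%, and CACGTG, which overlaps ACGTG, in 7 of 45 (15.56%) against 7.15%. These are matches to short letters and no measure of binding.

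Ldha was low at E3.5, where the lowest, median and highest embryo stood at 0, 9.11 and 79.8 CPM. The E3.5 level differed by plate name, with a mean of 3.05 CPM over 5 sums on P8 and 46.5 CPM over 4 sums on P9. The sums on P8 were of few cells each. The E4.5 epiblast-like sums of embryos 1 to 5 held 2536, 2953, 1666, 1565 and 2088 CPM, and the endoderm-like sums of the same embryos held 2207, 4619, 2669, 3148 and 1880 CPM. Every E4.5 sum was therefore far above every E3.5 sum. The log2 fold change was 6.64 (SE 0.62) in the epiblast comparison and 7.06 (SE 0.63) in the endoderm comparison, with adjusted p of 1.9e-11 and 4.2e-12 by edgeR's quasi-likelihood test. Cell by cell, after thinning each cell to 200000 counts, Ldha was detected in 23.5% of 98 E3.5 cells (31.3% of the unthinned cells) and in 98.8% to 100% of the cells of every later class.

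Slc16a3 was at 0, 0 and 3.03 CPM in the lowest, median and highest E3.5 embryo. It reached 262.3, 332, 244.3, 57.9 and 173.5 CPM in the E4.5 epiblast-like sums of embryos 1 to 5. In the endoderm-like sums it stood at 22.6, 101.3, 47.5, 63.4 and 40.4 CPM. The ranges of E3.5 and E4.5 did not overlap in either lineage, and the log2 fold changes were 8.38 (SE 0.61, adjusted p = 6.0e-15, edgeR) and 6.42 (SE 0.58, adjusted p = 6.2e-12, edgeR). It was detected in 4.1% of thinned E3.5 cells, 95.7% of the 23 E4.5 epiblast-like cells and 69.1% of 81 E4.5 endoderm-like cells (5.1%, 95.7% and 75.6% unthinned).

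Ldhb was read at 0 in 9 of the 10 E3.5 embryos, with 1.03 CPM in the last. Its E4.5 epiblast-like sums held 18.9, 8.73, 0, 9.57 and 16.3 CPM, and its endoderm-like sums 7.32, 0, 4.06, 0.507 and 0.535 CPM. One E4.5 sum of each lineage stood at 0, so the ranges overlapped that of E3.5. Resting on 6 counts at E3.5 in all, the log2 fold changes were 6.49 (SE 0.83, adjusted p = 6.1e-08) in the epiblast comparison and 4.32 (SE 0.87, adjusted p = 0.00024) in the endoderm comparison by edgeR. The second was 1.07 (adjusted p = 0.565, edgeR) when cells labelled as doublets were left out. Pdk1 ran from 0 to 8.25 CPM at E3.5, with a median of 1.59 CPM. It stood at 54.6, 126.2, 67.1, 50.9 and 61.9 CPM in the E4.5 epiblast-like sums, all above E3.5, and at 4.73, 10.97, 25.8, 15.1 and 31.01 CPM in the endoderm-like sums, the lowest of which fell inside the E3.5 range. The log2 fold changes were 4.57 (SE 0.72, adjusted p = 4.5e-06, edgeR) and 2.53 (SE 0.69, adjusted p = 0.00637, edgeR). The endoderm call was lost in a fit of only the 2 classes compared (2.56, adjusted p = 0.157, edgeR).

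**Figure D2:**
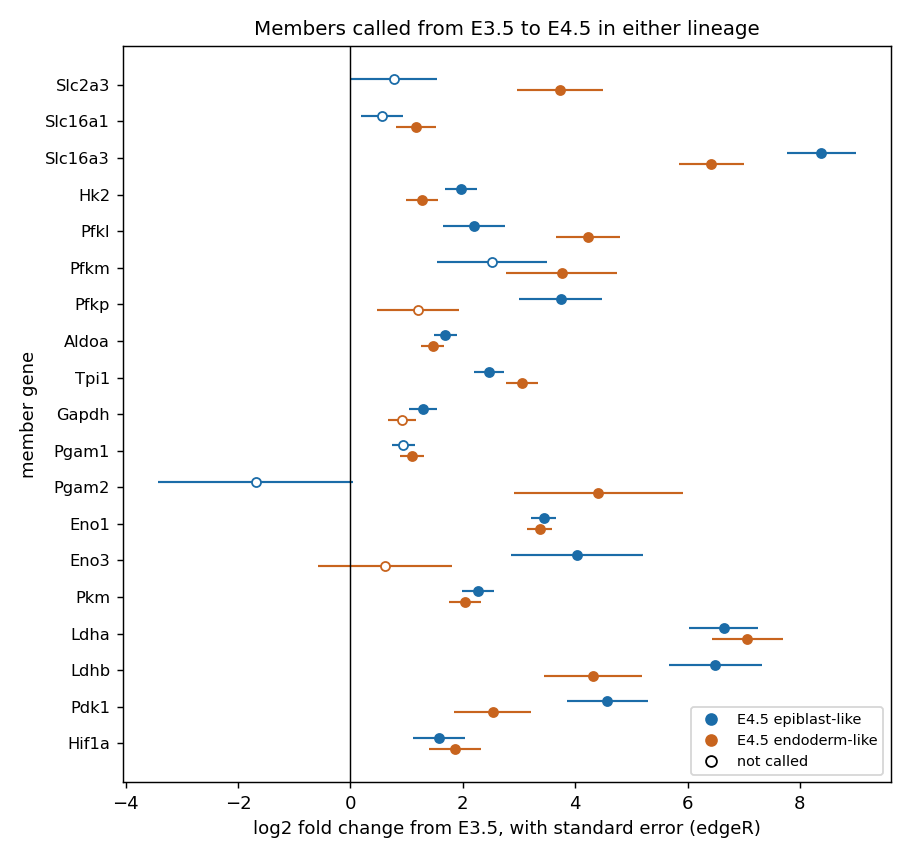
Log2 fold change from E3.5 to E4.5 with its SE (horizontal axis) for each gene (vertical axis), in the epiblast-like and the endoderm-like comparison; filled points were called and open points were not. Ldha lies at 6.64 and 7.06 and Slc16a3 at 8.38 and 6.42; Pfkfb4, at 0 in every E4.5 epiblast-like sum, is left out.

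The enzymes of the triose phase followed. Eno1 (enolase 1, which makes phosphoenolpyruvate) ran from 35.5 to 118.98 CPM at E3.5, with a median of 63.02 CPM. It stood at 1073, 1061, 456, 530 and 729 CPM in the E4.5 epiblast-like sums and at 827, 962, 517, 768 and 577 CPM in the endoderm-like sums, with no overlap. Its log2 fold changes of 3.44 (SE 0.22) and 3.37 (SE 0.22) had the smallest adjusted p of all members in both comparisons, 4.6e-17 and 6.2e-17 by edgeR's quasi-likelihood test. Tpi1 (triosephosphate isomerase) rose from 33.3, 72.5 and 165.4 CPM (lowest, median and highest) at E3.5. In the epiblast-like sums it reached 296, 866, 502, 94.5 and 454 CPM, with the fourth embryo inside the E3.5 range, and in the endoderm-like sums 806, 822, 757, 269 and 686 CPM, all above it. The log2 fold changes were 2.46 (SE 0.27, adjusted p = 2.6e-09, edgeR) and 3.05 (SE 0.28, adjusted p = 5.1e-12, edgeR).

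Pkm (pyruvate kinase, the last step to pyruvate) ran from 53.3 to 738 CPM at E3.5 and from 1483 to 1846 CPM in the E4.5 epiblast-like sums. The endoderm-like sums ran from 1161 to 1811 CPM, so neither lineage overlapped E3.5. The log2 fold changes were 2.27 (SE 0.28, adjusted p = 3.5e-08, edgeR) and 2.04 (SE 0.28, adjusted p = 3.0e-07, edgeR). Gapdh (glyceraldehyde-3-phosphate dehydrogenase) had a log2 fold change of 1.29 (SE 0.25, adjusted p = 0.000128, edgeR) in the epiblast comparison, from 22.4 to 124.6 CPM at E3.5 to 177.4 to 234.2 CPM at E4.5. It was no longer called when Ward clustering replaced the main clustering (0.81) or when 5 cells were asked of a sum (0.94). In the endoderm-like sums Gapdh lay between 128.4 and 169.2 CPM, also above every E3.5 embryo, but missed the fold limit. Pgam1 (phosphoglycerate mutase 1) ran from 25.7 to 78.03 CPM at E3.5 and from 82.2 to 115.1 CPM in the endoderm-like sums, a log2 fold change of 1.09 (SE 0.21, adjusted p = 0.000152, edgeR) that came to 1.0 and missed the limit without embryo 2. In the epiblast-like sums Pgam1 held 63.6 to 110.4 CPM and was not called.

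A pair of muscle-type isozymes rose in 1 lineage each. Eno3 (enolase 3) was at 0 to 8.29 CPM at E3.5 and at 25.6, 0, 17.2, 15.3 and 74.3 CPM in the E4.5 epiblast-like sums, which overlapped at embryo 2. The log2 fold change was 4.03 (SE 1.18, adjusted p = 0.0101, edgeR) and was lost without embryo 5 (3.16, adjusted p = 0.0652, edgeR). The Eno3 call was also lost with the cells labelled single alone (3.33, adjusted p = 0.083, edgeR). Pgam2 (phosphoglycerate mutase 2) was at 0 to 9.78 CPM at E3.5 and at 49.1, 58.4, 22.97, 85.2 and 10.1 CPM in the endoderm-like sums, all higher. Its log2 fold change of 4.41 (SE 1.5, adjusted p = 0.0288, edgeR) was lost without embryo 2 (4.25, adjusted p = 0.0525) or embryo 4 (4.05, adjusted p = 0.0654). So it was with the cells labelled single alone (3.52, adjusted p = 0.139, edgeR) and with at least 5 cells a sum (3.38, adjusted p = 0.145, edgeR).

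**Figure D3:**
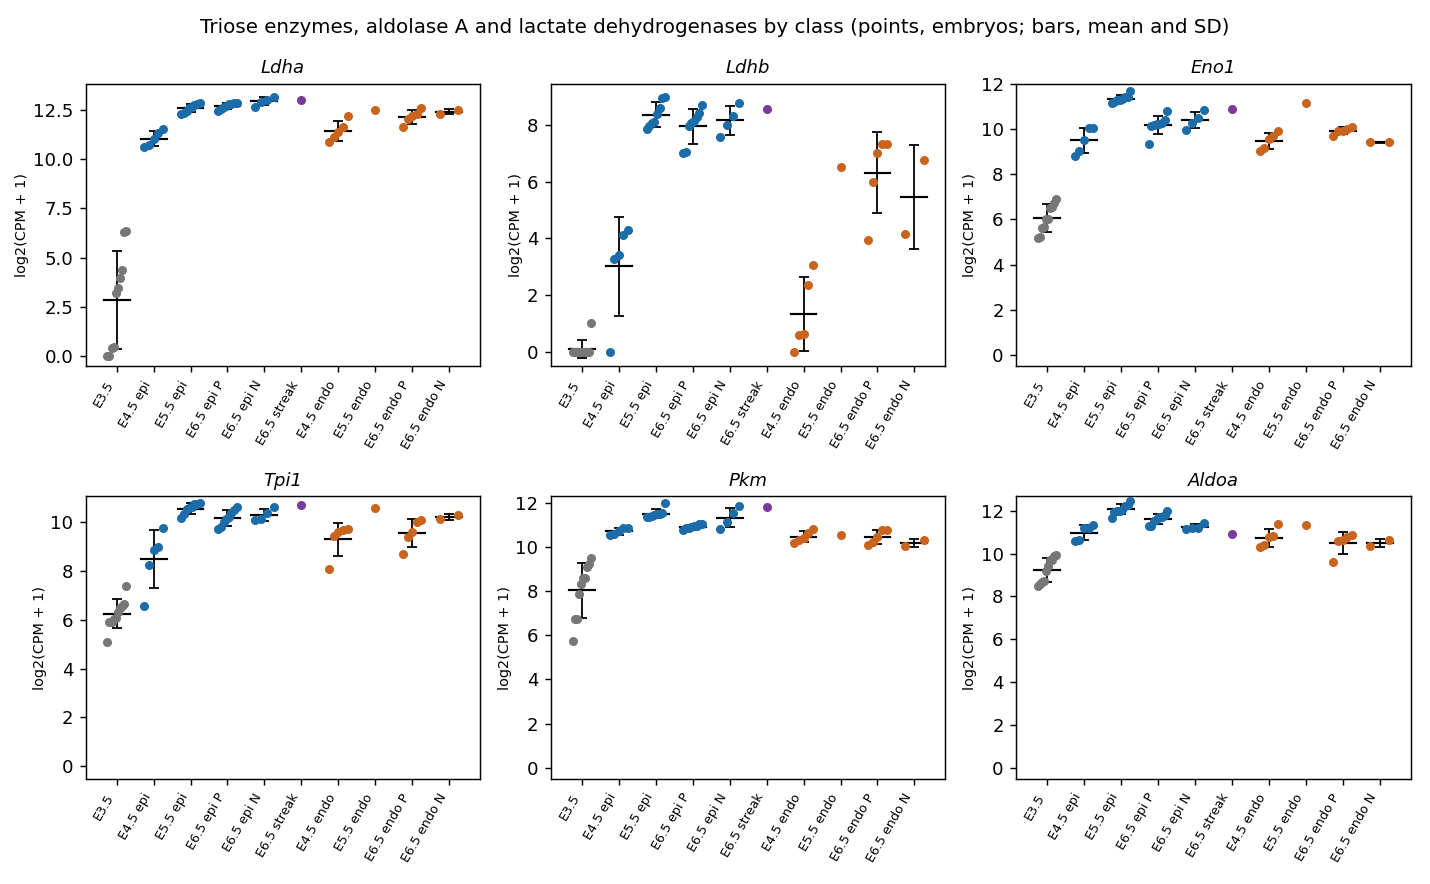
Levels of Ldha, Ldhb, Eno1, Tpi1, Pkm and Aldoa as log2(CPM + 1) (vertical axis), 1 point per embryo sum and bars at the mean and SD of each class, by stage and class (epi, epiblast-like; endo, endoderm-like; P, plates P1 to P3; N, no plate name). Ldha lies between 0 and 79.8 CPM at E3.5 and at 1565 CPM or more in every later sum, while Ldhb stays under 19 CPM until E5.5.

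In the hexose phase Aldoa (aldolase A, which splits the phosphorylated hexose), the highest member per kilobase at E3.5, stood at 361, 634 and 969 CPM there in the lowest, median and highest embryo. It stood at 2345, 2592, 1568, 1514 and 2314 CPM in the E4.5 epiblast-like sums and at 1337, 2691, 1248, 1730 and 1783 CPM in the endoderm-like sums, above E3.5 throughout. The log2 fold changes were 1.69 (SE 0.20, adjusted p = 5.9e-09, edgeR) and 1.46 (SE 0.20, adjusted p = 1.5e-07, edgeR). Hk2 (hexokinase 2, which traps glucose in the cell) ran from 25.96 to 151.5 CPM at E3.5, from 132.6 to 360.0 CPM in the epiblast-like sums and from 110.1 to 199.5 CPM in the endoderm-like sums, overlapping E3.5 in both. Its log2 fold changes were 1.97 (SE 0.28, adjusted p = 7.3e-07, edgeR) and 1.27 (SE 0.28, adjusted p = 0.000885, edgeR). Gpi1 (glucose-6-phosphate isomerase) was not called in either, with 77.7 to 229.3 CPM at E3.5, 212.8 to 349 CPM in the epiblast-like and 119.6 to 321 CPM in the endoderm-like sums.

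The phosphofructokinases, which catalyse the committed step, moved by isozyme. Pfkl (liver type) ran from 0 to 80.2 CPM at E3.5, from 83.4 to 227.9 CPM in the epiblast-like sums and from 347 to 840 CPM in the endoderm-like sums, with no overlap between the 3 classes. The log2 fold changes from E3.5 were 2.20 (SE 0.55, adjusted p = 0.00251, edgeR) and 4.23 (SE 0.57, adjusted p = 1.3e-07, edgeR). The epiblast call was lost in a fit of only the 2 classes compared (2.26, adjusted p = 0.11, edgeR). Pfkp (platelet type) was called higher in the epiblast comparison, at 3.74 (SE 0.74, adjusted p = 0.00017, edgeR), from 0 to 43.3 CPM at E3.5 to 155.1 to 452 CPM. Pfkm (muscle type) was called higher in the endoderm comparison, at 3.76 (SE 0.99, adjusted p = 0.00478, edgeR), from 0 to 7.77 CPM at E3.5 to 21.6 to 39.2 CPM. Pfkfb4, a bifunctional enzyme that sets the level of the phosphofructokinase activator fructose 2,6-bisphosphate, went the other way: it had 388 counts at E3.5, where embryos ran from 0 to 32.99 CPM, and 0 in the 5 epiblast-like sums, which made it at least 35.28-fold lower against a floor of 3 counts over the group. That call was lost with the cells labelled single alone (adjusted p = 0.0773), with at least 5 cells a sum (adjusted p = 0.0719) and with Ward clustering (-2.54, adjusted p = 0.387, edgeR).

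Of the remaining transporters and the regulator, Slc2a3 (the high-affinity glucose transporter GLUT3) ran from 0 to 170.1 CPM at E3.5 and stood at 1046, 252.3, 384, 310 and 472 CPM in the E4.5 endoderm-like sums, all higher. The log2 fold change was 3.73 (SE 0.76, adjusted p = 0.000286, edgeR). Slc16a1 (the monocarboxylate transporter MCT1) stood at 110.8, 91.2, 79.5, 164.9 and 172.4 CPM in those sums against 10.2 to 168.1 CPM at E3.5, with overlap, and its log2 fold change of 1.17 (SE 0.36, adjusted p = 0.0163, edgeR) was lost without embryo 4 (1.05, adjusted p = 0.0559) or embryo 5 (1.0, adjusted p = 0.0735). Slc2a1 (GLUT1, the widely expressed glucose transporter) was not called, with a median of 93.5 CPM over the E3.5 embryos, at 69.7 to 188.02 CPM in epiblast-like and 88.9 to 249.9 CPM in endoderm-like sums. Hif1a, the oxygen-regulated subunit of HIF, ran from 2.26 to 148.6 CPM at E3.5, from 119.1 to 255.1 CPM in the epiblast-like sums and from 161.4 to 322 CPM in the endoderm-like sums. Its log2 fold changes were 1.58 (SE 0.46, adjusted p = 0.00933, edgeR) and 1.86 (SE 0.46, adjusted p = 0.00256, edgeR), and the epiblast range overlapped that of E3.5. In a fit of only the 2 classes compared, Hif1a was called in neither lineage (1.64 and 1.91, adjusted p of 0.113 and 0.0612, edgeR). The epiblast value came to 0.96 when at least 5 cells were asked of a sum.

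Other measures moved with the E3.5 to E4.5 contrast. The sum over 10 trophectoderm markers was 166.3 to 1008 CPM at E3.5, 181.9 to 441 CPM in E4.5 epiblast-like and 65.3 to 159.7 CPM in E4.5 endoderm-like sums, and its part in these differences was not tested (9 of the 10 markers were detected at E3.5, 7 in the epiblast-like and 6 in the endoderm-like sums, Cdx2 being at 0 in both). The plates differed as well. Among E3.5 sums mean Pkm was 163.4 CPM on P8 and 568.2 CPM on P9, and mean Hif1a 29.8 and 103.8 CPM. Slc2a3 went the other way, at 68.9 and 7.02 CPM. The plate name P11.P6.P10 held both E3.5 cells (1 sum) and E5.5 epiblast-like cells (2 embryos), and no E4.5 cells. Within it Ldha stood at 9.92 CPM at E3.5 and a mean of 5608 CPM at E5.5, Slc16a3 at 0.18 and 636 CPM, Eno1 at 50.1 and 2528 CPM, Tpi1 at 63.8 and 1423 CPM, Pkm at 384 and 2790 CPM and Aldoa at 578 and 3600 CPM. For each of these 6 genes the E5.5 mean lay far above the E3.5 value under the shared name, though the labels do not say that it was 1 physical plate. Members that did not rise under that name included Slc16a1 (75.5 and 71.4 CPM), Pdk2 (11.4 and 5.1 CPM), Pfkfb2 (7.75 and 0.88 CPM) and Pfkfb4 (24.3 and 0.032 CPM). The part of the plates in the E3.5 to E4.5 differences was not tested.

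Between the lineages at E4.5 few members were called. In the unpaired comparison 1 member was higher in endoderm-like sums (4.36% of all genes were) and 1 lower (2.24% were). These were Slc2a3, at a log2 fold change of 2.97 (SE 0.96, adjusted p = 0.0498, edgeR), and Slc16a3, at -1.96 (SE 0.59, adjusted p = 0.0356, edgeR). Slc2a3 had 39.5, 78.6, 52.6, 97.9 and 46.6 CPM in the epiblast-like sums of embryos 1 to 5, all below the endoderm-like values of 252.3 to 1046 CPM. Slc16a3 was lower in the endoderm-like sum in 4 of 5 embryos, and in embryo 4 it was 63.4 CPM there against 57.9 CPM. Leaving out any 1 of the 5 embryos ended the Slc2a3 call (2.33 to 3.32, adjusted p from 0.0849 to 0.215, edgeR), and leaving out embryo 1, 2, 3 or 5 ended that of Slc16a3 (-1.68 to -2.12, adjusted p from 0.0599 to 0.144, edgeR). Ward clustering named 60 E4.5 cells endoderm and 45 epiblast, and neither gene was then called (2.26 and -1.47, adjusted p of 0.184 and 0.189, edgeR). All E4.5 cells of the deposit were kept here, while the study left intermediate cells with markers of both lineages out of later analyses.

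Both classes came from the same embryos, and a fit of their sums alone with the embryo as a block called 6 members. A fit of only these classes without the block also called 6, so the higher count is not particular to the pairing. Slc2a3 (2.78, adjusted p = 0.0025), Pfkl (2.01, adjusted p = 0.000454) and Pgam2 (7.45, adjusted p = 0.00428) were higher in the endoderm-like sums by edgeR with the block. Slc16a3 (-1.99, adjusted p = 0.0173), Pdk1 (-2.25, adjusted p = 0.0192) and Pfkp (-2.50, adjusted p = 0.000372) were lower. Pfkp, at 170.4, 218.4, 240.3, 155.1 and 452 CPM in the epiblast-like sums, held 43.5, 41.5, 28.5, 41.6 and 58.98 CPM in the endoderm-like sums, and Pfkl showed the opposite order without overlap. On plates P1 and P2 taken alone, the endoderm minus epiblast differences in log2 level were 3.44 and 2.55 for Slc2a3, 1.93 and 2.13 for Pfkl, -2.17 and -2.69 for Pfkp, -2.24 and -1.63 for Slc16a3, and -3.37 and -1.29 for Pdk1. Pdk2, another pyruvate dehydrogenase kinase, stood at 48.9, 20.2, 13.8, 21.9 and 14.8 CPM in the endoderm-like sums and at 0, 13.5, 3.71, 0 and 0 CPM in the epiblast-like sums, above it in every embryo, but was not called.

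From E4.5 to E5.5 in the epiblast, 5 members rose (3.13% of all genes did) and 1 fell (3.18% did). The median log2 fold change was 0.87 over the members and 0.21 over all genes tested. Ldhb showed the largest increase, from at most 18.9 CPM at E4.5 to 234.04, 303 and 511 CPM in the lowest, median and highest of 8 embryos, with a log2 fold change of 5.00 (SE 0.79, adjusted p = 2.3e-05, edgeR). It was detected in 26.1% of E4.5 epiblast-like cells and in 98.8% of E5.5 epiblast-like cells after thinning. Eno1 reached 2306, 2583 and 3329 CPM (1.78, SE 0.25, adjusted p = 3.4e-06, edgeR) and Tpi1 1126, 1528 and 1721 CPM (1.77, SE 0.32, adjusted p = 0.000197, edgeR), both above all 5 E4.5 sums. Ldha itself, at 4971 to 7309 CPM, also stood above every E4.5 epiblast-like sum, and Slc16a3 likewise at 553 to 780 CPM, without passing the test.

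Aldoa, at 3260 to 5668 CPM, and Slc2a1, at 167.2 to 429 CPM, were called with log2 fold changes of 1.07 (SE 0.22, adjusted p = 0.00109, edgeR) and 1.07 (SE 0.32, adjusted p = 0.0328, edgeR). Slc2a1 overlapped its E4.5 range and lost its call without embryo 1, 2, 4 or 5 of E4.5 (0.87 to 1.14, adjusted p from 0.054 to 0.117, edgeR), and Aldoa fell short of the fold limit without embryo 3 (0.97) or 4 (0.98). Pfkp was the member that fell, from 155.1 to 452 CPM at E4.5 to 15.8 to 45.8 CPM at E5.5, without overlap, by a log2 fold change of -3.23 (SE 0.79, adjusted p = 0.00742, edgeR). Pfkl ran from 368 to 534 CPM at E5.5, above every E4.5 epiblast-like sum, and was not called.

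From E5.5 to E6.5 some transporters rose in the epiblast and others fell. On plates P1 to P3, 4 members rose (5.87% of all genes did) and 6 fell (7.87% did), with 2 of 4 glucose transporters higher and 1 (Slc2a4) lower, and 1 of 2 monocarboxylate transporters (Slc16a1) higher and the other (Slc16a3) lower. In the E6.5 embryos without plate name 3 rose (0.859% of all genes did) and 0 fell (0.577% did), and both comparisons used the same E5.5 sums. For the absence of falling members in the second, edgeR gave 3 with an unadjusted p below 0.05 and DESeq2 called 0. Slc16a1 rose in both: it stood at 44.4, 71.8 and 135.9 CPM (lowest, median, highest) at E5.5 and at 134.5, 335 and 644 CPM at E6.5 on plates P1 to P3, where the ranges overlapped slightly. In the embryos without plate name it stood at 311, 200.2, 194.9 and 428 CPM, all above E5.5. The log2 fold changes were 2.21 (SE 0.36, adjusted p = 1.3e-05, edgeR) and 1.86 (SE 0.40, adjusted p = 0.00559, edgeR), and the second was lost without embryo 2 titled E6.75 (1.59, adjusted p = 0.0639).

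Slc2a3 rose on plates P1 to P3 from 6.35, 29.5 and 55.7 CPM to 74.2, 170.1 and 900 CPM, without overlap, at a log2 fold change of 3.04 (SE 0.76, adjusted p = 0.00458, edgeR). Slc2a1 rose in the embryos without plate name, to 752, 941, 653 and 536 CPM from at most 429 CPM, at 1.21 (SE 0.32, adjusted p = 0.0335, edgeR). That call was lost without embryo 1 (1.17, adjusted p = 0.101) or 2 (1.07, adjusted p = 0.156) or embryo 1 titled E6.75 (1.25, adjusted p = 0.0668). Slc2a2 (GLUT2, the low-affinity glucose transporter of liver and gut) had 0 counts in every E3.5, E4.5 and E5.5 epiblast-like sum. At E6.5 it stood at 37.4, 10.7 and 1.28 CPM in 3 of the 8 embryos on plates P1 to P3 and at 0 in the others, at least 328.3-fold higher against a floor of 3 counts over the group. Without embryo 9 of plate P3, which held the highest of these values, it was still called and at least 182.8-fold higher, and the call was lost with Ward clustering of the cells (log2 fold change 2.87, adjusted p = 0.235, edgeR). In the embryos without plate name it stood at 2.17, 0, 0.334 and 7.995 CPM, at least 146.6-fold higher, and that call was lost without embryo 1 (adjusted p = 0.0503) or embryo 2 titled E6.75 (adjusted p = 0.124). Without both embryos titled E6.75, none of the 3 calls in this comparison held (Slc2a2, Slc16a1 and Slc2a1, adjusted p of 0.258, 0.157 and 0.11 by edgeR).

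Endoderm markers moved with these transporters. Their sum, over 21 markers of which Sox7 was at 0 at E5.5 and none at E6.5, was 75.1 to 211.4 CPM in E5.5 epiblast-like sums, 417 to 3242 CPM in E6.5 epiblast-like sums on plates P1 to P3 and 483 to 2005 CPM in those without plate name, against 9324 to 21000 CPM in E6.5 endoderm-like sums on plates P1 to P3. Embryo 9 on plate P3 had the highest marker sum and also the highest Slc2a2, Slc2a3 and Slc16a1 of its class. Without it Slc2a3 and Slc16a1 were still called, and the part of the markers in these increases was not tested.

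**Figure D4:**
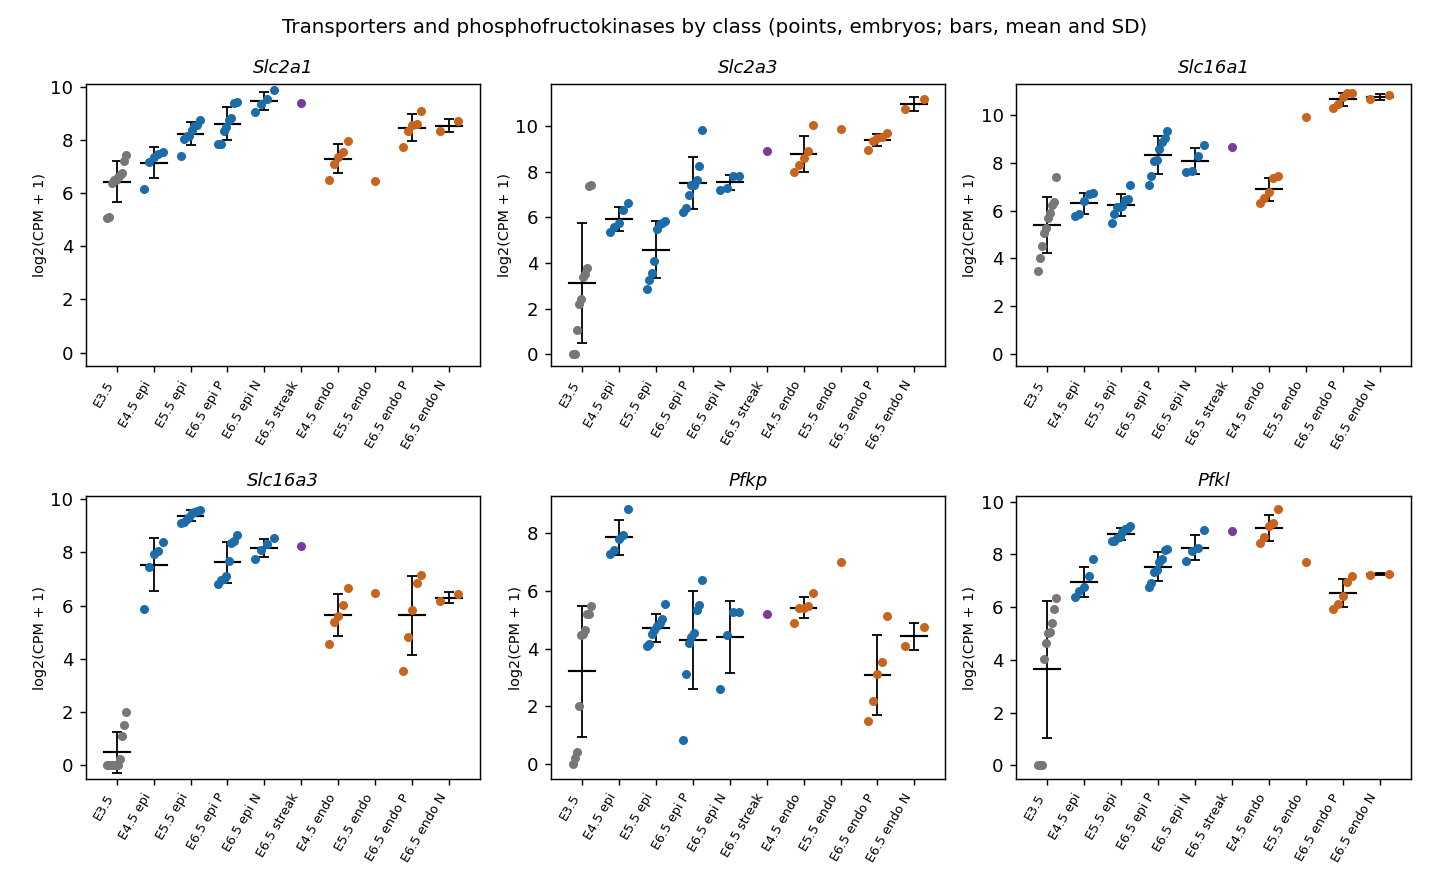
Levels of Slc2a1, Slc2a3, Slc16a1, Slc16a3, Pfkp and Pfkl as log2(CPM + 1) (vertical axis), 1 point per embryo sum and bars at the mean and SD of each class, by stage and class (epi, epiblast-like; endo, endoderm-like; P, plates P1 to P3; N, no plate name). Slc16a3 peaks at 553 to 780 CPM in E5.5 epiblast-like sums, where Slc16a1 and Slc2a3 lie at no more than 135.9 and 55.7 CPM.

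The members that fell on plates P1 to P3 included the lactate exporter. Slc16a3 went from 553, 683 and 780 CPM at E5.5 to between 112.2 and 397 CPM, without overlap, by a log2 fold change of -1.60 (SE 0.46, adjusted p = 0.0139, edgeR). Gpi1 went from 383, 445 and 590 CPM to 44.6, 190 and 251.5 CPM, also without overlap (-1.34, SE 0.25, adjusted p = 0.000174, edgeR). Eno1 went from 2306 to 3329 CPM at E5.5 to 661, 1208 and 1784 CPM (-1.12, SE 0.20, adjusted p = 0.000109, edgeR). In the embryos without plate name the 4 values of Slc16a3 lay between 217.2 and 372 CPM and those of Eno1 between 1002 and 1852 CPM, below every E5.5 sum, but neither passed the test there.

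Low genes made up the rest. Pfkfb2, a bifunctional regulator of phosphofructokinase, rose from 0 to 4.25 CPM to 0 to 43.6 CPM (3.35, SE 1.14, adjusted p = 0.0375, edgeR), a call lost under 4 alternatives (2.92 to 3.14, adjusted p from 0.0517 to 0.0737). Pdk2 fell from 0.731 to 13.2 CPM to at most 1.05 CPM (-4.25, SE 1.43, adjusted p = 0.0359, edgeR), a call lost without embryo 9 of plate P3 (-4.1, adjusted p = 0.0567). Slc2a4 (GLUT4, the insulin-responsive glucose transporter) and Pfkfb4 had 0 counts in the 8 sums and were at least 58.95-fold and at least 9.288-fold lower than at E5.5, where they reached 12.3 and 3.09 CPM. Both calls were lost with DESeq2 (adjusted p of 0.105 and 0.0762) and with the E6.5 batches joined (-2.25 and -1.23, adjusted p of 0.409 and 0.644, edgeR). Ldha was not called, at 5514 to 7338 CPM on plates P1 to P3 and 6482 to 9192 CPM without plate name.

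At E6.5 the endoderm-like sums on plates P1 to P3 differed from the epiblast-like sums of the same plates in 1 higher member (4.38% of all genes) and 4 lower members (5.6% of all genes). Slc16a1 was the higher one. It stood at 1248, 1937, 1403, 1728 and 1935 CPM in embryos 2, 5, 6, 7 and 8, above the 134.5 to 644 CPM of the epiblast-like sums, with a log2 fold change of 2.19 (SE 0.38, adjusted p = 0.000214, edgeR). In the 2 endoderm-like sums without plate name, both titled E6.75, Slc16a1 held 1627 and 1838 CPM. The differences within plates P1, P2 and P3 were 2.25, 2.35 and 1.97.

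Slc16a3 was lower in the E6.5 endoderm, at 10.7, 27.4, 141.9, 114.01 and 56.3 CPM, with some overlap with the epiblast-like sums (-1.66, SE 0.55, adjusted p = 0.0425, edgeR). That call was lost without embryo 2 (-1.39, adjusted p = 0.106), 5 (-1.45, adjusted p = 0.102) or 8 (-1.59, adjusted p = 0.075). Aldoa stood at 1770, 1533, 1867, 779 and 1567 CPM, below the 2461 to 4083 CPM of the epiblast-like sums (-1.08, SE 0.22, adjusted p = 0.00132, edgeR), and came to -0.91 without embryo 7. Pfkm, at 0 to 2.70 CPM against 0 to 26.2 CPM, was lower by a log2 fold change of -4.12 (SE 1.31, adjusted p = 0.0351, edgeR), lost without embryo 2, 5, 7 or 8 (adjusted p from 0.0649 to 0.0739). Pfkfb3, the inducible bifunctional regulator, at 0 in 4 of 5 endoderm-like sums and 1.17 CPM in the other against 0 to 15.2 CPM, was lower by -4.83 (SE 1.51, adjusted p = 0.0323, edgeR), lost without embryo 2, 5, 6 or 7 (adjusted p from 0.0657 to 0.0704).

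With the embryo as a block, over the 5 embryos that gave both classes, 3 members were called. Slc16a1 (2.58, adjusted p = 0.00126) and Slc2a3 (2.14, adjusted p = 0.00246) were higher in the endoderm-like sums and Aldoa (-1.10, adjusted p = 0.0248) was lower by edgeR with the block. Slc16a3 (-1.89, adjusted p = 0.159) and Pfkm (-4.59, adjusted p = 0.441) were no longer called, and Pfkfb3 did not pass the filter on low counts of that fit. Slc2a3 stood at 492, 706, 719, 650.4 and 823 CPM in these endoderm-like sums.

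Within the endoderm, 4 members were higher at E6.5 than at E4.5 (4.71% of all genes were) and 4 lower (9.01% were). Slc16a1 rose from 79.5 to 172.4 CPM to 1248 to 1937 CPM (3.74, SE 0.48, adjusted p = 3.3e-07, edgeR). Ldhb rose from 0 to 7.32 CPM to 128.02, 62.4, 14.5, 158.89 and 158.98 CPM in embryos 2, 5, 6, 7 and 8 (5.45, SE 0.83, adjusted p = 9.2e-06, edgeR). Neither gene's ranges overlapped. Slc2a1 rose from 88.9 to 249.9 CPM to 210 to 547 CPM (1.17, SE 0.35, adjusted p = 0.0187, edgeR), a call lost without embryo 2 of E6.5 (0.98, adjusted p = 0.0631). Slc2a2 went from 0 counts to 16.95, 2.54, 48.4, 0 and 12.2 CPM, at least 349.7-fold higher.

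Pfkl fell in the endoderm from 840, 585, 537, 399 and 347 CPM to 60.7, 146.2, 68.5, 84.3 and 124.2 CPM, without overlap (-2.48, SE 0.69, adjusted p = 0.0116, edgeR). Pfkm fell from 21.6 to 39.2 CPM to at most 2.70 CPM (-5.26, SE 1.42, adjusted p = 0.00956, edgeR). Pdk2 had 1470 counts at E4.5 and 0 at E6.5, at least 146.2-fold lower. The 2 endoderm-like sums without plate name, both titled E6.75, also stood at 0. Pfkfb4, at 0.695 to 14.8 CPM at E4.5, was at 0 and at least 26.55-fold lower, a call lost without embryo 5, 6, 7 or 8 of E6.5 (adjusted p from 0.0502 to 0.0548). The difference between lineages changed from E4.5 to E6.5 in 1 member that was lower (3.3% of all genes) and 0 that were higher (0.983%). It was Pfkl, at -3.06 (adjusted p = 0.0433, edgeR), and the call was lost without any 1 embryo of E4.5 or without embryo 2, 6 or 7 of E6.5 (-2.86 to -3.2, adjusted p from 0.0599 to 0.0996). For higher members edgeR gave 1 with an unadjusted p below 0.05 and DESeq2 called 1. With the embryo as a block Pfkl (-2.87, adjusted p = 0.0033) was called and Slc16a1 (2.01, adjusted p = 0.0310) joined it.

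Set per length, the mix of isozymes changed with stage and lineage. Shares here are of CPM per kilobase of merged exons within a family, as the mean and SD over embryos. Of the pair Slc16a1 and Slc16a3, the exporter Slc16a3 made up 1.53 ± 2.8% at E3.5 (n = 10), 69.01 ± 13% in E4.5 epiblast-like (n = 5), 30.6 ± 15% in E4.5 endoderm-like (n = 5) and 89.6 ± 3.2% in E5.5 epiblast-like sums (n = 8). At E6.5 on plates P1 to P3 it was 38.7 ± 17% in the epiblast-like (n = 8) and 4.07 ± 3.5% in the endoderm-like sums (n = 5). Of the 4 glucose transporters, Slc2a1 held 91.7 ± 3.1% in the E5.5 epiblast, while Slc2a3 held 67.7 ± 15% in the E4.5 endoderm and 59.8 ± 11% in the E6.5 endoderm on plates P1 to P3. Among phosphofructokinases Pfkp held 58.2 ± 13% in the E4.5 epiblast, the 1 class where Pfkl, at 37.3 ± 13%, did not lead, and Pfkl held 87.03 ± 4.2% in the endoderm of the same embryos.

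**Figure D5:**
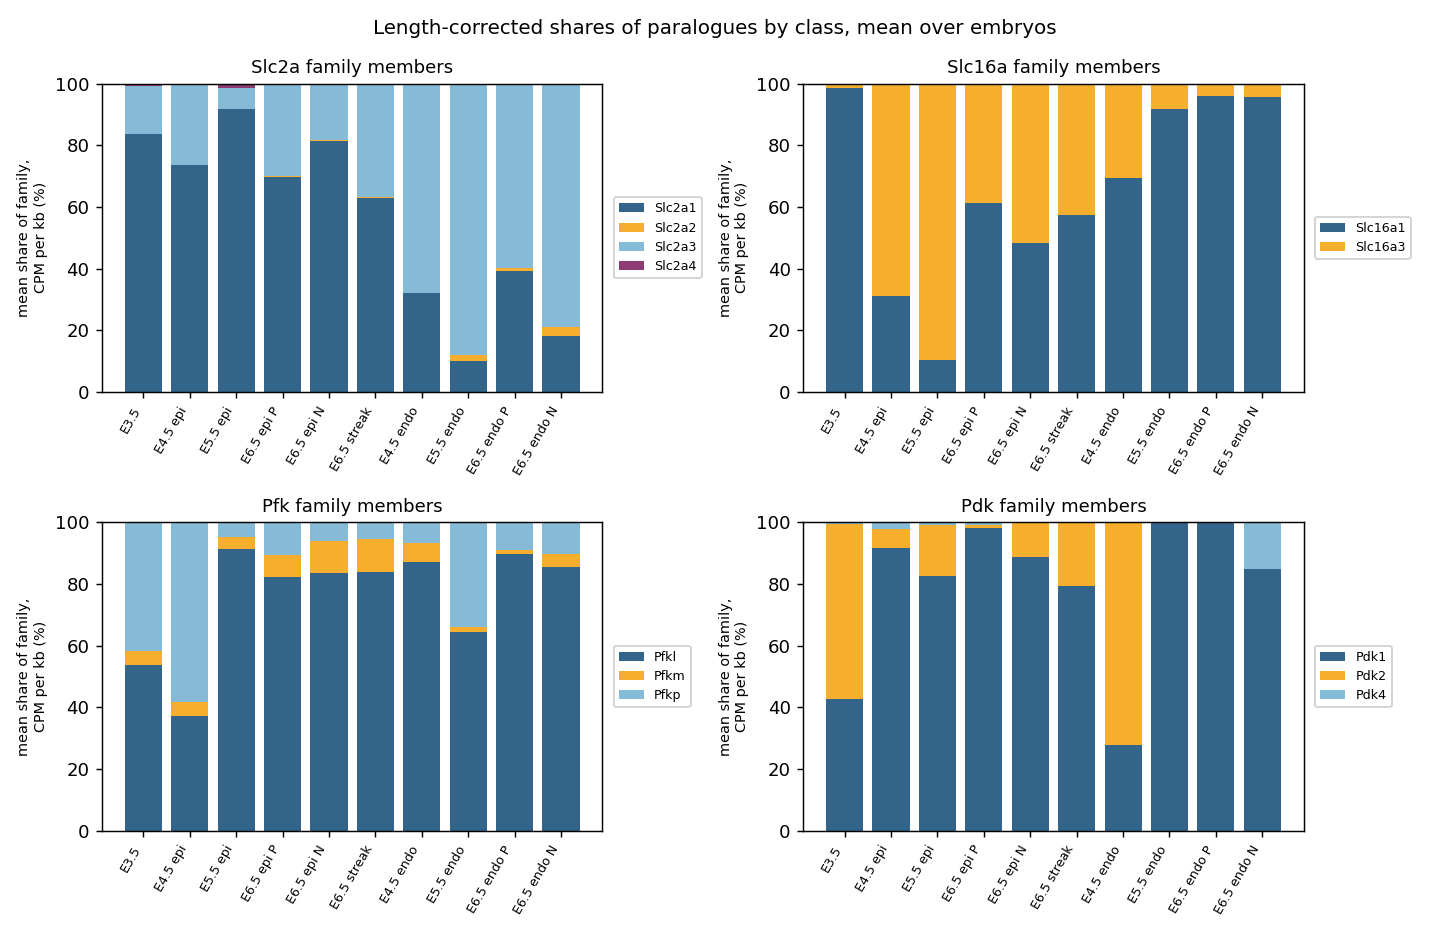
Mean share of each gene, in percent of the family's CPM per kilobase (stacked bars, vertical axis), for the glucose transporters, monocarboxylate transporters, phosphofructokinases and pyruvate dehydrogenase kinases in each class (horizontal axis; epi, epiblast-like; endo, endoderm-like; P, plates P1 to P3; N, no plate name). Slc16a3 makes up 89.6% of its pair in E5.5 epiblast-like sums and 4.07% in E6.5 endoderm-like sums on plates P1 to P3.

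Among pyruvate dehydrogenase kinases Pdk1 held 91.8 ± 8.8% in the E4.5 epiblast-like sums and Pdk2 72.3 ± 18% in the endoderm-like sums. Ldhb stayed the minor subunit of lactate dehydrogenase per length, with 7.49 ± 2.3% in the E5.5 epiblast-like, 5.45 ± 1.8% in the E6.5 epiblast-like and 3.48 ± 2.3% in the E6.5 endoderm-like sums on plates P1 to P3. Among all 31 members, Aldoa had the highest mean level per kilobase at E3.5 (351 CPM per kb), where Ldha ranked 11th with 11.2 CPM per kb. Ldha ranked 1st in every class from E4.5 on, with 1141 CPM per kb in the E4.5 epiblast-like, 1533 in the E4.5 endoderm-like and 3268 in the E5.5 epiblast-like sums.

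The 4 members Hk1, Aldoc, Eno2 and Pdk4 were called in no comparison, and all were low. Hk1 (hexokinase 1) stayed between 0 and 17.2 CPM, with 5.03, 8.10 and 10.4 CPM in the lowest, median and highest E5.5 epiblast-like sum. Aldoc (aldolase C) reached 86.99 CPM in 1 E6.5 epiblast-like sum, with a median of 2.41 CPM in that class. Eno2 (the neuronal enolase) stayed at or under 5.07 CPM. Pdk4 (a kinase induced on fasting) stayed at or under 3.18 CPM apart from 13.3 CPM in 1 E6.5 endoderm-like sum without plate name.

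A further 2 classes gave 1 sum each and no test. The E5.5 endoderm-like sum, of 5 cells, held 980 CPM of Slc16a1, 933 CPM of Slc2a3, 31.3 CPM of Slc2a2 and 89.1 CPM of Slc16a3, nearer to the E6.5 endoderm-like than to the E5.5 epiblast-like sums for each of these 4 transporters. The E6.5 primitive streak-like sum, of 24 cells, held 8162 CPM of Ldha, 3634 CPM of Pkm, 1663 CPM of Tpi1 and 301 CPM of Slc16a3, inside or just beside the ranges of the E6.5 epiblast-like sums without plate name.

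Some levels are less certain than their counts. Gapdh, Eno1, Pgam1, Aldoa, Ldha, Tpi1 and Pkm have near-identical processed copies in the genome, and reads that fit a copy as well would have been dropped with the alignments of low mapping quality, so their levels are uncertain against other genes. The protocol keeps no strand, and exons of Slc2a1, Gpi1, Pfkm, Pfkp, Pfkfb2, Aldoa, Tpi1, Pkm and Hif1a overlap those of another annotated gene, so reads of the pair cannot be told apart.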

How the data were processed

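The authors deposited 1 table of raw read counts per gene and cell. According to the labels and the study's methods, reads were trimmed with Trim Galore (version 0.4.3 in the submitters' processing notes), mapped to GRCm38 with HISAT2 (2.0.5), stripped of alignments of low mapping quality and counted per gene in SeqMonk, and cells with few genes, many mitochondrial reads or trophoblast markers were removed before deposit. All 721 cell columns were used and 0 were left out. From these deposited counts, k-means runs (20 starts) over several distances were combined into a consensus. Complete linkage cut it into 8 clusters over all cells and 5 at E6.5. Clusters were named by the mean log2 level of marker sets, doublets being kept as labelled. Counts were summed by embryo and class (3 cells or more) and tested in 1 fit with edgeR 4.0.16 (R 4.3.3; TMM, filterByExpr, quasi-likelihood F test, Benjamini-Hochberg over 15258 genes, adjusted p of at most 0.05 and log2 fold change above 1). DESeq2 1.42.0 was an alternative, beside other filters, fold limits, groupings, clusterings, leaving out each embryo, and the embryo as a block. The block pairs classes from the same animals, but their paired deviations hardly correlated (0.005 to 0.07). Shares of cells were taken at 200000 counts per cell, leaving out 13 shallower cells. Figures and clustering used Python 3.11.15 with scikit-learn 1.9.0. The fit was tested on simulated data. Of 200 genes given a 4-fold change it recovered 42 (E4.5 to E6.5 endoderm) to 76 (E4.5 to E5.5 epiblast). For E4.5 endoderm against epiblast it recovered 43. Most such changes were missed, so a gene that was not called may still have changed. Every member is named with its values, log2 fold changes are given for called members, and at most 4 called genes of each other list are named per comparison, those with the largest change. The members and lists were chosen with earlier results of these data known. Embryos are the replicates, but cells of an embryo share its dissection and plate, and intervals cover counting error only. Promoter sequences are from RefSeq on GRCm38.p6.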

Additional observations from a re-analysis of the deposited data

Results flagged for a closer look

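Among groups of 4 to 10 embryos, 1 per gene and class, 38 (18.8% of those examined) had an embryo that stood apart from the others by Dixon's criterion. For normally distributed values chance alone meets it in about 1 of 20 groups. It was applied here to CPM, where 1 embryo with a few counts among zeros always meets it. The share of 18.8% can therefore not be set against that rate. The values that follow are levels in CPM.

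Most stood above their group. Embryo 9 of plate P3 stood apart among the E6.5 epiblast-like sums in Slc2a2 (37.42), Slc2a3 (899.5) and Pgam2 (57.96), and it had the highest endoderm marker sum of that class, 3242 CPM. Embryo 4 of plates P7.P4.P5 stood apart among the E5.5 epiblast-like sums in Pfkm (28.98), Gapdh (344.7), Eno1 (3329) and Pkm (4066). Embryo 6 of the same plates stood apart in Pfkfb2 (4.25) and Eno2 (5.073). In the E4.5 endoderm-like sums embryo 1 was high in Slc2a3 (1046), Eno2 (3.659) and Pdk2 (48.93), and embryo 4 was low in Tpi1 (268.9).

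In the E4.5 epiblast-like sums embryo 1 was high in Pgam2 (3.357), embryo 2 in Hk1 (3.176), Pdk1 (126.2) and Pdk2 (13.5), and embryo 5 in Pfkp (452.2). At E3.5 embryo 8 of plate P9 was high in Slc2a4 (2.575) and Ldhb (1.03). On plate P8 embryo 1 was high in Aldoc (24.13), embryo 2 in Slc16a1 (168.1), Tpi1 (165.4) and Eno2 (0.7855), embryo 3 in Pfkfb2 (59.19) and embryo 4 in Hk2 (151.5).

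In the E5.5 epiblast-like sums embryo 8 of plates P11.P6.P10 was low in Pdk1 (18.44) and high in Pdk4 (1.737). Among the E6.5 epiblast-like sums, embryo 6 of plate P2 was high in Aldoc (86.99) and Pgam1 (243.5), embryo 3 of plate P1 was high in Eno2 (1.573), and embryo 2 of plate P1 was low in Gpi1 (44.63). Without a plate name, embryo 2 was high in Slc2a4 (8.43) and embryo 2 titled E6.75 in Pdk4 (0.0941). In the E6.5 endoderm-like sums embryo 8 of plate P3 was high in Pfkp (33.97) and Pfkfb3 (1.165), embryo 7 in Eno3 (69.85) and embryo 2 of plate P1 in Aldoc (1.338).

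The difference between endoderm-like and epiblast-like sums changed from E4.5 to E6.5 for Pfkl, by a log2 value of -3.06 with an adjusted p of 0.0433 in edgeR's interaction test.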

How the results depend on the processing

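All 1323 alternative values of the 66 called log2 fold changes kept their direction, 1168 of them stayed called, and 26 of the 66 were called under every alternative run. Settings that changed the fold limit alone reused the main values, so direction could not differ there. By adjusted p alone no call could be lost. Of the recomputed counts of called members 55 moved by over 1.5 times. The count for E4.5 endoderm against epiblast (2) was 8 with DESeq2, 7 with at least 5 cells a sum, 6 with only the groups compared, 6 with the replicate block, 4 without 2 E4.5 clusters, 1 with RLE scaling, no filter, a log2 limit of 2, cells labelled single, E6.5 batches joined, no embryos titled E6.75 or the unnamed cells as epiblast, 0 with Ward clustering or 1 cell a sum, and 0 to 1 without 1 embryo. That for E4.5 to E5.5 epiblast (6) was 11 with at least 5 cells, 11 with only the groups compared and 2 with the limit of 2. That for E5.5 to E6.5 epiblast on plates P1 to P3 (10) was 6 with batches joined. Without plate name (3) it was 5 by adjusted p alone, 1 with the limit of 2, 0 without embryos titled E6.75, 5 with the unnamed cells, 6 with only the groups compared and 1 to 3 without 1 embryo. At E6.5 the endoderm against epiblast count (5) was 3 with RLE, the limit of 2, single cells or the block (pairing by embryo), 2 with only the groups compared and 2 to 6 without 1 embryo. The interaction count (1) was 4 with DESeq2, 3 with at least 5 cells, 1 cell or batches joined, 2 with single cells or the block, 0 with RLE, no filter, no E6.75 or the unnamed cells, and 0 to 1 without 1 embryo. The block changed no call of a member beyond those given in the text, and Pfkfb3 was not tested in it at E6.5. Over all genes called, the share that was higher moved by over 10 percentage points in several fits. From E3.5 it went from 61.6% to 38.1% (epiblast) and from 71.2% to 51.4% (endoderm) with only the groups compared. For E4.5 to E5.5 epiblast (49.6%) it was 60.5% with DESeq2 and 62.7% with only the groups compared. For E5.5 to E6.5 it was 32.4% with Ward clustering against 42.7% on plates P1 to P3, and without plate name (59.8%) 40.3% with DESeq2, 44.1% with Ward clustering, 37.8% with only the groups compared, 73.7% without embryos titled E6.75 and 70.7% without embryo 2. For endoderm against epiblast it went from 66.04% to 18.2% with Ward clustering and 54.4% with at least 5 cells at E4.5, and from 43.9% to 32.6% with 1 cell a sum, 57.2% with only the groups compared and 76.6% with the block at E6.5. For E4.5 to E6.5 endoderm (34.4%) it was 48.7% with at least 5 cells and 45.1% with only the groups compared, and for the interaction (22.9%) 39.02% with Ward clustering, 34.6% with at least 5 cells and 49.4% with the block. The mean over members above 10 CPM was 0.01 lower in E4.5 endoderm than epiblast (-0.01), against 0.40 higher over all 31. The cause of these changes was not tested. Counting the 17 unnamed cells as epiblast, leaving out the 2 E4.5 clusters and leaving out embryo 9 of plate P3 were chosen after seeing the data. Members under about 10 CPM rest on few counts, and depth limits calls there.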

Other observations

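Genes next to the pathway were counted over lists of related genes, with no test of the lists. From E3.5 to E4.5 epiblast, 13.1% of all genes tested were called higher and 8.15% lower. On the citric acid cycle list 1 of 17 genes tested was called higher and 2 lower. Of 7 genes of the pyruvate dehydrogenase complex and its phosphatases 0 were higher and 1 lower. The listed gene that rose was Mdh1, which encodes the cytosolic malate dehydrogenase and not the mitochondrial enzyme of the cycle. It went from a median of 59.8 CPM at E3.5 to 143.9 CPM in epiblast-like and 339 CPM in endoderm-like sums at E4.5. Its log2 fold changes were 1.66 (SE 0.39, adjusted p = 0.00137, edgeR) and 2.26 (SE 0.39, adjusted p = 1.9e-05, edgeR). Pdp2, a phosphatase that switches the pyruvate dehydrogenase complex on, fell from 226.2 to 876 CPM at E3.5 to 6.71 to 33.02 CPM in epiblast-like and 7.17 to 27.1 CPM in endoderm-like sums, without overlap. Its log2 fold changes were -4.63 (SE 0.62, adjusted p = 2.1e-07, edgeR) and -4.61 (SE 0.62, adjusted p = 1.5e-07, edgeR). In the endoderm comparison Dlat and Pdhb, 2 core subunits of the same complex, were lower too, at -1.51 (SE 0.35, adjusted p = 0.00117, edgeR) and -1.34 (SE 0.31, adjusted p = 0.00118, edgeR).

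Emb (embigin, a partner protein of the monocarboxylate transporters) ran from 0 to 64.8 CPM at E3.5 and from 666 to 1077 CPM in E4.5 endoderm-like sums, at a log2 fold change of 5.93 (SE 0.59, adjusted p = 8.4e-11, edgeR). It stood at 71.1 to 151.9 CPM in E4.5 epiblast-like sums, below every endoderm-like sum of that stage, and at 2427 to 5419 CPM in E6.5 endoderm-like sums on plates P1 to P3 against 767 to 1315 CPM in the epiblast-like sums. Of 8 pentose phosphate genes tested, 1 rose from E4.5 to E5.5 epiblast (3.13% of all genes did), Tkt (transketolase), by 1.62 (SE 0.23, adjusted p = 4.6e-06, edgeR). From E5.5 to E6.5 epiblast on plates P1 to P3, 3 of the 8 were lower (7.87% of all genes were) and 0 higher (5.87% were). Of 20 hypoxia targets outside glycolysis, 2 were higher and 4 lower from E3.5 to E4.5 epiblast, and 3 were higher and 0 lower from E4.5 to E5.5 (3.18% of all genes were lower). Those 3 were Ddit4, Fam162a and Bnip3, with log2 fold changes of 4.96, 2.11 and 1.48. Mycn, of 7 Myc family genes tested, rose from E5.5 to E6.5 epiblast on plates P1 to P3 (5.87% of all genes did), from a median of 45.1 CPM to one of 235.4 CPM, at 2.48 (SE 0.49, adjusted p = 0.0003, edgeR). Mycn was also called higher from E3.5 to E4.5 in both lineages and from E5.5 to E6.5 epiblast without plate name.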
